A study of Vitis vinifera with 12 samples.

Results

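Stilbene synthase genes and the transcription factor gene MYB14 were followed in the fruit peel and the young leaf of 3 cultivars of grapevine (Vitis vinifera). The cultivars were Bangalore blue, Red globe and Dilkhush, and the series sets them side by side for their unequal content of anthocyanin, the pigment of coloured grape skin. Members were the rows whose gene name, split at commas, holds STS, VINST1 or MYB14. The rule goes by name and not by value, although earlier results of these data were known when it was chosen. The rule found 4 rows of 25210 in the peel table and 4 of 25253 in the leaf table: in each, 2 rows named STS, 1 row named VINST1 and 1 row named MYB14. The 2 STS rows bear the same name and no further identifier, so an STS row of the peel table cannot be tied to an STS row of the leaf table, and within each table they are told apart below as the STS row with the higher maximum and the STS row with the lower maximum.

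The 6 groups were peel of Bangalore blue, Red globe and Dilkhush and young leaf of the same cultivars, with 2 libraries each and no treatment named in the labels. The sources used here do not give berry stage, leaf age or the number of plants, so a difference of stage and a difference of cultivar cannot be told apart. The deposited values are RPKM, reads per length of transcript and per mapped reads of the column, with 1 column for the 2 libraries of a group. Each number is therefore the authors' single value for a cultivar in a tissue, without replicate error, and no p-value is given.

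Stilbene synthase joins coumaroyl-CoA to malonyl-CoA and releases resveratrol, the parent of the grape stilbenes, which act as antimicrobial phytoalexins. Chalcone synthase uses the same substrates to open the flavonoid pathway that leads to anthocyanins, so both enzymes draw on one pool. Grapevine carries stilbene synthase as a large family of close tandem copies, known to be induced by pathogens, wounding and ultraviolet light and during ripening of the berry skin. MYB14 is an R2R3-type MYB factor known in grapevine to activate stilbene synthase promoters.

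The summed markers stood higher in the columns of their own tissue, with single rows that did not. The 6 fruit skin marker rows (UFGT, GST4, GRIP22, GRIP4, GRIP61 and the row LOC100853472 of the mybA genes) summed to between 7742 and 17028 RPKM in peel and between 11.8 and 183 RPKM in leaf. In peel the GRIP4 row also bore the name MRIP1 and the GRIP61 row the name LOC100245649. In leaf each stood alone, so these rows are not the same between tissues. The 5 leaf marker rows (PSBP1, PSBP2, CHLH, NDHM and THI1-2) summed to between 501.8 and 883 RPKM in peel and between 1451 and 2858 RPKM in leaf. THI1-2 had 478 RPKM in peel and 46.0 RPKM in leaf of Bangalore blue. In Dilkhush the pigment genes UFGT, with 2.09 RPKM in peel and 7.87 RPKM in leaf, and GST4, with 9.86 RPKM in peel and 53.2 RPKM in leaf, also stood against their place. Both were high in the other peels, UFGT at 297 RPKM in Bangalore blue and 308 RPKM in Red globe, and GST4 at 2246 RPKM in Bangalore blue and 1279 RPKM in Red globe, so they were low in the peel column where stilbene synthase was low, and their part in that was not tested. Of the floral genes, AP1 was listed at 0 in every peel column and at 0.266 to 6.50 RPKM in leaf, and AG had 61.7 to 95.0 RPKM in peel and 4.84 to 10.8 RPKM in leaf. Of the summed RPKM, transfer RNA rows held 13.8% (Bangalore blue peel), 33.6% (Red globe peel) and 20.7% (Dilkhush peel), and their part in the peel differences was examined only by rescaling. Depth is unknown, and peel and leaf were normalized in separate tables, so cultivars were compared within a tissue and levels of peel and leaf are only set side by side.

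In peel, stilbene synthase RNA was highest in Red globe, intermediate in Bangalore blue and lowest in Dilkhush. The STS row with the higher maximum had 7.33 RPKM in Bangalore blue, 26.4 RPKM in Red globe and 0.434 RPKM in Dilkhush peel. The STS row with the lower maximum had 5.68 RPKM in Bangalore blue, 12.1 RPKM in Red globe and 0.720 RPKM in Dilkhush peel. VINST1, for which the RefSeq gene table lists the synonyms STS2, RS and VST1, had 3.48 RPKM in Bangalore blue, 13.0 RPKM in Red globe and 0.134 RPKM in Dilkhush peel. The order of the columns was the same in each of the 3 stilbene synthase rows, an order held by 13.1% of all peel rows. Close copies may share reads, so these 3 rows are not independent measurements. As places among all rows of its column, the STS row with the higher maximum stood above 61.5% of rows in Bangalore blue peel, above 82.6% in Red globe peel and above 33.7% in Dilkhush peel. In these bulk tissues, fewer cells that express a gene and less RNA of it per cell cannot be told apart.

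In young leaf the place of Dilkhush was turned round, and no stilbene synthase value was above 4.63 RPKM. The STS row with the higher maximum had 0.860 RPKM in Bangalore blue, 0.822 RPKM in Red globe and 4.63 RPKM in Dilkhush leaf. The STS row with the lower maximum had 0.136 RPKM in Bangalore blue, 0.510 RPKM in Red globe and 1.22 RPKM in Dilkhush leaf. VINST1 had 0.0443 RPKM in Bangalore blue, 0.387 RPKM in Red globe and 1.70 RPKM in Dilkhush leaf. Dilkhush, the lowest of the peel columns in every stilbene synthase row, was thus the highest of the leaf columns in every one. Bangalore blue and Red globe leaf had nearly equal values in the STS row with the higher maximum, and Bangalore blue was the lower of the pair in the other 2 rows. No leaf value of a member reached 10 RPKM, and 6 of the 9 stilbene synthase values were below 1 RPKM, where a single column gives little to rank on.

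**Figure D1:**
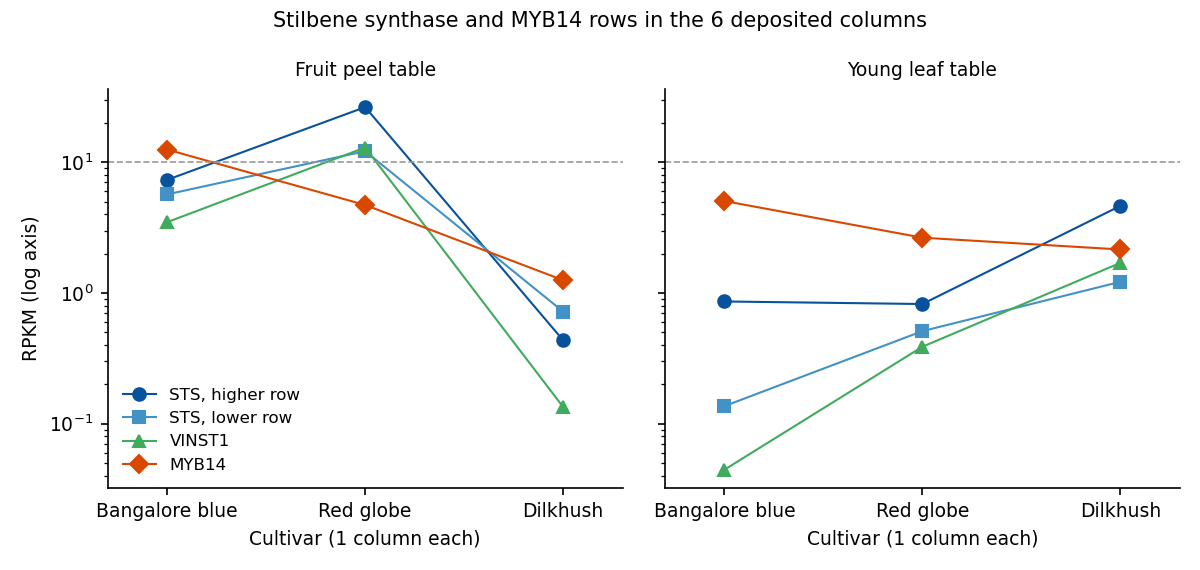
RPKM (log axis) of the 4 member rows in the 3 cultivar columns of the peel table (left panel) and of the leaf table (right panel); each point is 1 deposited value, lines join points of 1 row within a table, and the dashed line marks 10 RPKM. The 3 stilbene synthase rows peak in Red globe peel, at 12.1 to 26.4 RPKM, and in Dilkhush leaf, at 1.22 to 4.63 RPKM, whereas MYB14 is highest in Bangalore blue in both tables; the higher and the lower STS row are ranked within a table and are not matched between tables.

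MYB14 did not follow the order of the stilbene synthase rows. It had 12.5 RPKM in Bangalore blue, 4.71 RPKM in Red globe and 1.25 RPKM in Dilkhush peel. In leaf it had 5.05 RPKM in Bangalore blue, 2.65 RPKM in Red globe and 2.15 RPKM in Dilkhush. Bangalore blue was highest and Dilkhush lowest in both tissues, a pair of orders held by 535 of the 23590 rows found once in each table (2.27%). The 2.15 RPKM of MYB14 in Dilkhush leaf was the lowest of the leaf columns, while the 3 stilbene synthase rows were highest there. Red globe peel, highest for stilbene synthase, had less MYB14 than Bangalore blue peel.

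Among the 13 rows whose names begin with MYB, MYB14 was a row of middle to low level. Counted from the highest, its rank was 6 for Bangalore blue peel, 7 for Red globe peel and 10 for Dilkhush peel, and 11, 12 and 12 for the leaves of the same cultivars. In peel 4 of the 13 rows had the order Bangalore blue, Red globe, Dilkhush from high to low, against 12.3% of all peel rows. They were MYB14 itself, MYB30, MYB4A and MYBC2-L1. In leaf 3 of the 13 had it, namely MYB14 itself, MYB30 and MYB4A, against 10.6% of all leaf rows. MYB30 had 110.0 RPKM in Bangalore blue, 96.3 RPKM in Red globe and 81.2 RPKM in Dilkhush peel, and 57.0, 24.0 and 14.6 RPKM in Bangalore blue, Red globe and Dilkhush leaf. MYB4A, a repressor of the phenylpropanoid and flavonoid genes, had 140.8 RPKM in Bangalore blue, 93.4 RPKM in Red globe and 77.3 RPKM in Dilkhush peel.

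Relative to Dilkhush, the peel differences were large beside those of other rows. A row was called where log2(RPKM + 1) differed by at least 2, which is 4-fold on the RPKM + 1 scale, with at least 10 RPKM in the higher cultivar. In Red globe peel 3 of the 4 members were called higher than in Dilkhush, against 0.92% of all peel rows. Their differences were 4.26 for the STS row with the higher maximum, 2.93 for the other STS row and 3.62 for VINST1, above those of 99.9%, 99.6% and 99.8% of rows in that order. MYB14 differed by 1.34 between Red globe and Dilkhush peel and was below 10 RPKM in both.

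In Bangalore blue peel MYB14 was the 1 member called higher than in Dilkhush, against 0.896% of all rows, with a difference of 2.58. The STS row with the higher maximum had a difference of nearly the same size, 2.54, yet its 7.33 RPKM in Bangalore blue lay under the floor. VINST1 and the STS row with the lower maximum differed by 1.98 and 1.96, just short of the size needed on the RPKM + 1 scale, although as plain ratios of RPKM they were 26.0 and 7.89 times higher in Bangalore blue. With a pseudocount of 0.1 in place of 1 their differences were 3.94 and 2.82, and neither row was called because both were below 10 RPKM. The median difference of the 4 members was 2.26 for Bangalore blue and 3.28 for Red globe against Dilkhush, where the median of all rows was 0.

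Set against each other, Bangalore blue and Red globe peel differed in opposite directions for the enzymes and for their regulator, with no member called, against 0.896% of rows called higher and 1.07% called lower. The difference of Bangalore blue minus Red globe was -1.72 and -0.98 for the STS rows with the higher and the lower maximum and -1.64 for VINST1, but 1.24 for MYB14. Per unit of MYB14 RPKM, the summed RPKM of the 3 stilbene synthase rows came to 1.32 (Bangalore blue peel), 10.9 (Red globe peel) and 1.03 (Dilkhush peel), which is a ratio of levels and not a rate.

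In leaf no member could be called, since none reached the floor, while calls for Bangalore blue minus Dilkhush took in 1.16% of all leaf rows on the higher side and 0.653% on the lower. Those shares were 1.34% and 1.1% for Red globe minus Dilkhush and 1.43% and 0.958% for Bangalore blue minus Red globe leaf. Without a floor, a difference of at least 1 (2-fold on the RPKM + 1 scale) toward the lower side was found in 2 of 4 members, the STS row with the higher maximum (-1.60) and VINST1 (-1.37), against 4.6% of all rows. The other STS row differed by -0.96 and MYB14 by 0.94. For Red globe minus Dilkhush the STS row with the higher maximum differed by -1.63, the 1 member lower by at least 1 on this scale, against 7.09% of all rows. VINST1 differed by -0.96, the other STS row by -0.55 and MYB14 by 0.21 in the same comparison. The added 1 compresses such low values: as plain ratios of RPKM, Red globe leaf had 0.177 times the Dilkhush level in the STS row with the higher maximum, 0.228 times in VINST1 and 0.419 times in the other STS row. With a pseudocount of 0.1 VINST1 differed by -3.64 for Bangalore blue and by -1.88 for Red globe minus Dilkhush leaf. Between Bangalore blue and Red globe leaf the largest member difference was that of MYB14, 0.73, and that of the STS row with the higher maximum was 0.03.

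**Figure D2:**
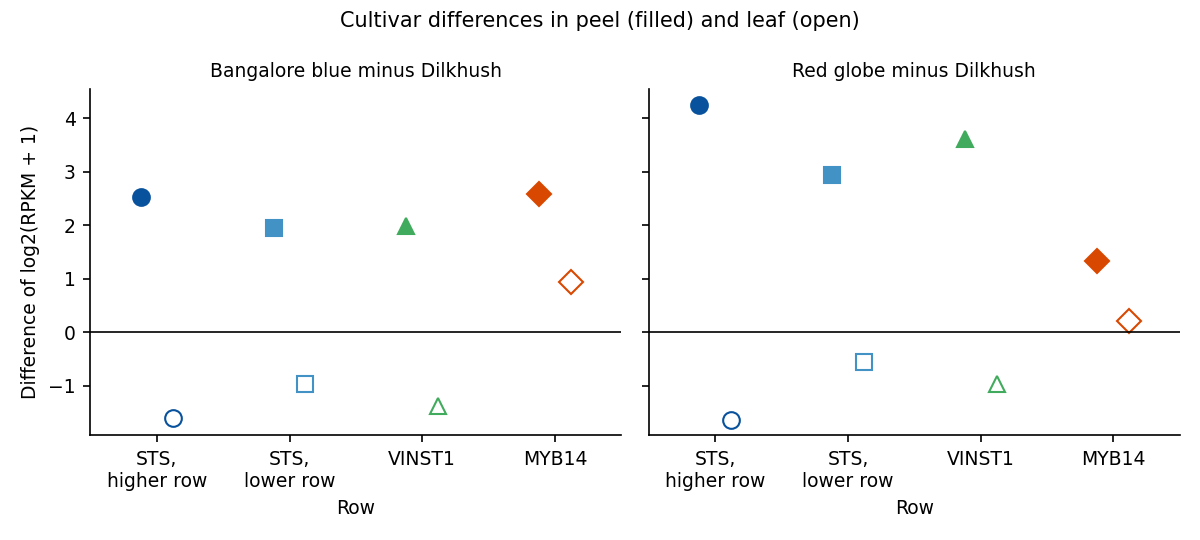
Difference of log2(RPKM + 1) for Bangalore blue minus Dilkhush (left panel) and Red globe minus Dilkhush (right panel) in the 4 member rows, with filled symbols for peel and open symbols for leaf, each from 1 pair of deposited values. The stilbene synthase rows lie between 1.96 and 4.26 in peel and between -1.63 and -0.55 in leaf, while MYB14 lies above 0 in both tissues. The higher and the lower STS row are ranked within a table, so filled and open STS symbols drawn together are not matched rows.

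The rows named for chalcone synthase, the competing enzyme, summed to far more RPKM than the 3 stilbene synthase rows in every column. Stilbene synthase genes without such a name are not counted, so the share of the whole family is not known. The rows named CHS and CHS3 summed to 2729 RPKM in Bangalore blue, 839 RPKM in Red globe and 272 RPKM in Dilkhush peel. The 3 stilbene synthase rows summed to 16.5 RPKM in Bangalore blue, 51.5 RPKM in Red globe and 1.29 RPKM in Dilkhush peel. As a share of the chalcone synthase sum this was 0.604% (Bangalore blue peel), 6.14% (Red globe peel) and 0.474% (Dilkhush peel). Bangalore blue and Dilkhush peel, the columns with the most and the least chalcone synthase, thus had shares below 1%, and the share in Red globe peel was several times larger.

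In leaf the chalcone synthase rows summed to 1012 RPKM in Bangalore blue, 706 RPKM in Red globe and 693 RPKM in Dilkhush. Stilbene synthase summed to 1.04 RPKM in Bangalore blue, 1.72 RPKM in Red globe and 7.55 RPKM in Dilkhush leaf. The share was 0.103% (Bangalore blue leaf), 0.243% (Red globe leaf) and 1.09% (Dilkhush leaf). The peel sum rests on 3 chalcone synthase rows and the leaf sum on 2, both enzymes have close copies between which reads may have been shared, and stilbene synthase genes without a name in the files are not in the sums.

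**Figure D3:**
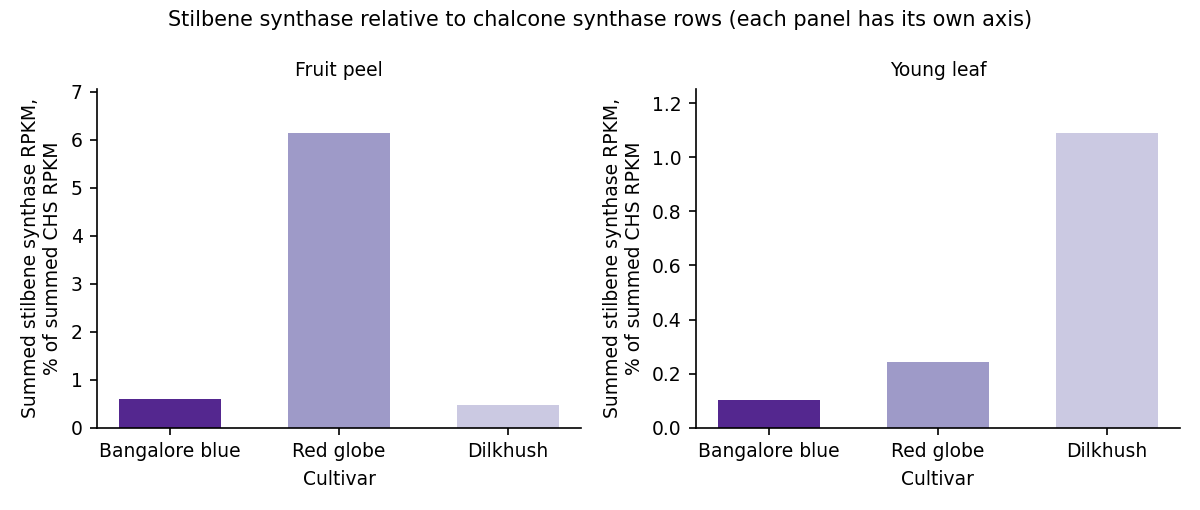
Summed RPKM of the 3 stilbene synthase rows as a percentage of the summed RPKM of the chalcone synthase rows (CHS and CHS3), with 1 bar for each cultivar column, in peel (left panel) and leaf (right panel, with its own axis). Red globe peel reaches 6.14% while the other peel columns are at 0.604% and 0.474%, and Dilkhush is the highest leaf column at 1.09%.

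Other genes around resveratrol were taken from a list of entry enzymes, branch enzymes, modifying enzymes and regulators. Of these, 9 rows were found in peel and 8 in leaf. The branch enzymes, CHS, CHS3 and CHI, belong to the competing flavonoid pathway and not to the route to resveratrol. Both peel medians against Dilkhush given below are values of such flavonoid rows, a CHS row for Red globe and CHI for Bangalore blue. C4H, MYB13, MYB15 and the listed WRKY1, WRKY2, WRKY3, WRKY8 and WRKY53 matched no row by name. A row named WKRY was counted as the regulator, and which of these WRKY factors it stands for, if any, is not known. The share of all rows that were higher than in Dilkhush was not counted, so the counts of higher rows have no background beside them. OMT2.1 and the PAL rows LOC100245997 and GVVPAL2 had at most 1.29 RPKM in peel. In Red globe peel 9 of the 9 rows were higher than in Dilkhush, with a median difference of 0.93, and 1 was called, against 0.92% of all peel rows. In Bangalore blue peel 8 of the 9 were higher and 1 lower than in Dilkhush, with a median of 1.19, and 1 was called, against 0.896% of all peel rows. The row called in both was CHS3, a chalcone synthase, at 2096 RPKM in Bangalore blue, 443 RPKM in Red globe and 49.7 RPKM in Dilkhush peel. It was also the 1 row of the list called between Bangalore blue and Red globe peel, higher in Bangalore blue, against 0.896% of all peel rows. In leaf the list was divided: for Bangalore blue minus Dilkhush 4 rows were higher and 4 lower, with a median of 0.17, and for Red globe minus Dilkhush 3 were higher and 5 lower, with a median of -0.16. The median of all rows was 0 in each of these comparisons.

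Phenylalanine ammonia-lyase (PAL), which makes cinnamate from phenylalanine, was represented, by name, by 2 rows of low level. Both had the peel order of stilbene synthase, an order held by 13.1% of all peel rows. Their peel values were mostly below 1 RPKM and give little to rank on. The row LOC100245997, with the RefSeq synonyms PAL and PAL15, had 0.249 RPKM in Bangalore blue, 1.29 RPKM in Red globe and 0.126 RPKM in Dilkhush peel. GVVPAL2 had 0.202 RPKM in Bangalore blue, 0.788 RPKM in Red globe and 0.0794 RPKM in Dilkhush peel. In leaf both were highest in Dilkhush, at 0.0811 RPKM for LOC100245997 and 0.168 RPKM for GVVPAL2, levels too low to rank columns on. 4CL, the ligase that makes coumaroyl-CoA, had 23.8 RPKM in Bangalore blue, 20.7 RPKM in Red globe and 7.25 RPKM in Dilkhush peel. In leaf 4CL had 111.8 RPKM in Bangalore blue, 70.7 RPKM in Red globe and 115.8 RPKM in Dilkhush.

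OMT2.1, which the RefSeq table also names romt and VvROMT, for the resveratrol O-methyltransferase that makes pterostilbene, was scarce in peel and present in 2 of the leaf columns. It had 0.0325 RPKM in Bangalore blue, 0.300 RPKM in Red globe and 0.200 RPKM in Dilkhush peel. In leaf it had 0.278 RPKM in Bangalore blue, 8.14 RPKM in Red globe and 10.9 RPKM in Dilkhush. It was called lower in Bangalore blue than in Dilkhush leaf, with a difference of -3.22, against 0.653% of all leaf rows. No other row of the list was called in any leaf comparison. The leaf order of OMT2.1, Dilkhush above Red globe above Bangalore blue, was that of VINST1 and of the STS row with the lower maximum. It was not that of the STS row with the higher maximum, and the share of all leaf rows with this order was not counted. In peel its order, Red globe above Dilkhush above Bangalore blue, was that of no stilbene synthase row. The row named WKRY had 26.3 RPKM in Bangalore blue, 39.0 RPKM in Red globe and 13.8 RPKM in Dilkhush leaf, and 20.1, 26.0 and 14.6 RPKM in peel of the same cultivars.

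The rows most like a member were sought over the 6 columns, among 12333 rows found once in each table with at least 10 RPKM somewhere. Likeness was the smallest Euclidean distance between values of log2(RPKM + 1) centred within each table. Because the STS rows of the tables are not matched, the STS row with the higher peel maximum was searched with either leaf STS row. The STS row with the lower peel maximum was not searched. Both searches and the search with VINST1 returned LOC100244758, LOC100253166 and LOC100262321 among their 4 nearest rows. Each of these rows reached 10 RPKM only in Red globe peel, the column where the STS row was also highest. LOC100244758 was the nearest to STS in both searches, at a distance of 0.30 and 0.56, with 7.03 RPKM in Bangalore blue, 21.3 RPKM in Red globe and 0.328 RPKM in Dilkhush peel. In leaf it had 0.310 RPKM in Bangalore blue, 0.357 RPKM in Red globe and 2.35 RPKM in Dilkhush.

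VINST1 itself was among the 4 rows nearest to STS in both searches, at a distance of 0.69 and 0.59. It too reached 10 RPKM only in Red globe peel, and close copies may share reads, so this likeness is not independent evidence. The 4 rows nearest to MYB14 were different ones: LOC100251716, LOC100241575, LOC100261322 and a row that joins LOC100241782 and LOC100255645, at distances of 0.40 to 0.54. LOC100251716 had 46.8 RPKM in Bangalore blue, 24.4 RPKM in Red globe and 6.64 RPKM in Dilkhush peel. MYB14 and VINST1 were 2.70 apart on the same measure. These rows have no description in the tables used here, and the likeness rests on 3 columns a tissue.

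LOC100253166 and LOC100262321 are neighbours of VINST1 on the reference genome, which led to a look along the gene order on both sides. Of the 50 genes before VINST1, toward the start of the chromosome, 31 had 1 row of their own in each table, and of the 50 after it 33 had. On the side before VINST1, 25 of the 31 rows (80.6%) were both lowest in Dilkhush among the peel columns and highest in Dilkhush among the leaf columns, as VINST1 was. On the side after VINST1 it was 1 of 33 rows (3.03%), and among all 23590 rows found once in each table it was 1772 (7.51%). The 25 rows lay between 46 places and 1 place before VINST1, and LOC100253166 and LOC100262321, which prompted the look, are among them. Several of the 25 had leaf values too low to rank columns on. LOC104877274, for example, had 0 RPKM in Bangalore blue and Red globe leaf and 0.141 RPKM in Dilkhush leaf. This window was chosen after the values had been seen, and close copies along the run may share reads, so the rows are not independent measurements.

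The medians of the 31 rows had the cultivar order of VINST1 in each tissue. Their median was 1.52 RPKM in Bangalore blue, 3.71 RPKM in Red globe and 0.306 RPKM in Dilkhush peel, and 0.0450, 0.117 and 1.26 RPKM in leaf of the same cultivars. On the RPKM + 1 scale, in Red globe peel 22 of the 31 rows were at least 2-fold higher than in Dilkhush (71.0%), against 5.28% of all peel rows. In Bangalore blue peel 11 were at least 2-fold higher than in Dilkhush (35.5%), against 4.78%. In leaf 15 of the 31 were at least 2-fold lower in Bangalore blue than in Dilkhush (48.4%), against 4.6%, and 9 were lower in Red globe (29.0%), against 7.09%. After VINST1, 3 of 33 rows were at least 2-fold higher in Red globe than in Dilkhush peel (9.09%).

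Single genes of the run differed in how Bangalore blue stood to Red globe. LOC100263437, at 12 places before VINST1, had 21.9 RPKM in Bangalore blue, 35.3 RPKM in Red globe and 0.977 RPKM in Dilkhush peel, a high level for the run in both Bangalore blue and Red globe. LOC100262321, at 46 places before it, had 9.14 RPKM in Bangalore blue, 44.4 RPKM in Red globe and 1.53 RPKM in Dilkhush peel. LOC100266849, at 4 places before it, had 3.96 RPKM in Bangalore blue, 0.567 RPKM in Red globe and 0.0400 RPKM in Dilkhush peel, with Bangalore blue and not Red globe highest. Red globe was the highest peel column in 23 of the 31 rows (74.2%), and in 29.9% of all rows found once in each table. LOC100249839, the gene directly before VINST1, had 1.24 RPKM in Bangalore blue, 9.37 RPKM in Red globe and 0.502 RPKM in Dilkhush peel, and LOC100260082, 2 places after VINST1, had 12.7, 4.17 and 5.17 RPKM in the same columns.

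**Figure D4:**
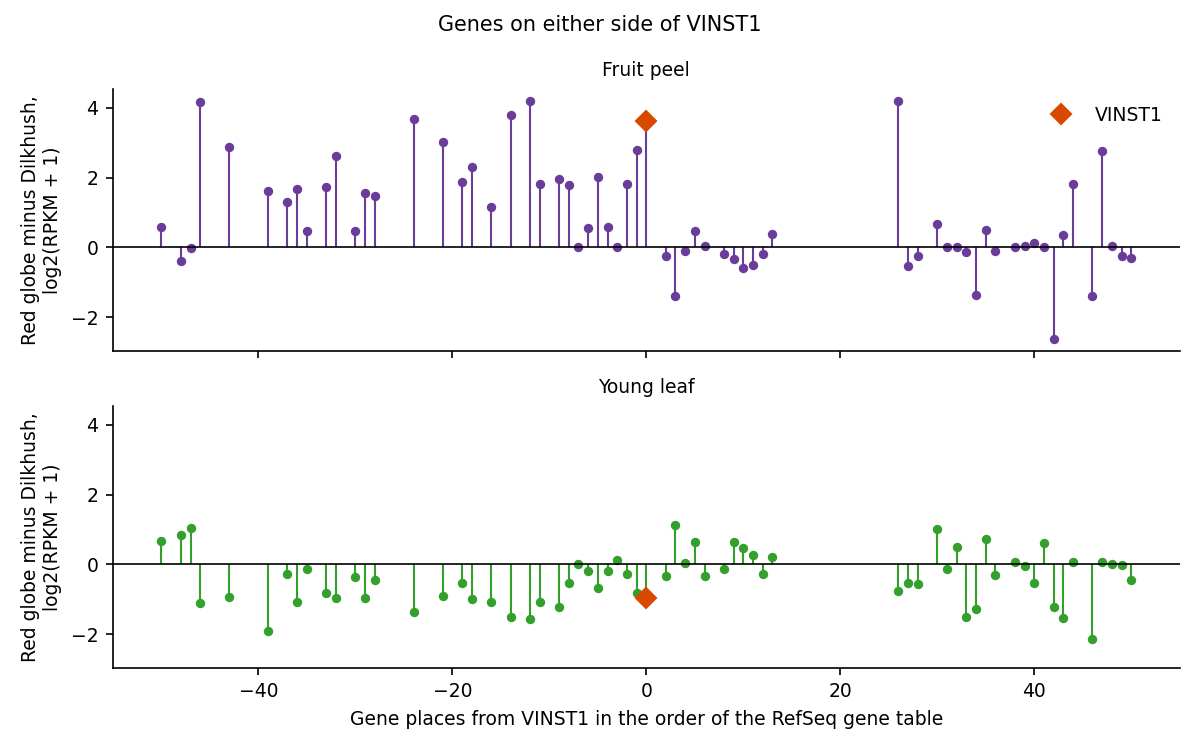
Difference of log2(RPKM + 1) for Red globe minus Dilkhush in peel (upper panel) and leaf (lower panel) of the genes up to 50 places on either side of VINST1 in RefSeq gene order; each point is 1 gene with a row of its own in both tables, and the diamond is VINST1. Before VINST1, 22 of 31 genes reach 1 or more in peel and 26 of 31 lie below 0 in leaf, whereas after it 3 of 33 reach 1 in peel.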

How the data were processed

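Messenger RNA libraries (12, strand-keeping kit, per the labels' protocols) gave 6 columns. The deposited values are RPKM per gene row in 2 tables, per the file headers. Per the submitters' processing notes the tools were TopHat2 2.1.1 and Cufflinks 2.2.1; for genome build, annotation, handling of reads matching several copies and merging of the 2 libraries, the entry is: not given in the sources used here. RPKM divides by transcript length and by the column's reads, so an abundant row lowers the others.

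Columns were tied to groups by the initials in the sample titles; 0 columns were left unmatched. Differences of log2(RPKM + 1) were taken in 6 comparisons over whole tables with Python 3.11.15, numpy 2.4.6 and pandas 2.3.3. On this scale differences of low rows are understated. The call rule and the nearest-row distance within a table were tested on simulated data, while the counts of column orders and of neighbour genes were not. Low values showed no steps of whole reads: at most 2.06% of ratios of values under 0.1 RPKM fell in 1 bin of 0.01 log2.

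Named genes were each member, listed pathway rows matched by symbol or synonym, and the 4 nearest rows to a member; the search from VINST1, the MYB-named rows and the neighbour genes were added after values were seen. The members and lists were chosen with earlier results of these data known. Gene order and synonyms came from NCBI RefSeq's genes of GCF_030704535.1, whose coordinates are not printed because the files' build is not known; sequences and promoter motifs were not analysed here. Alternatives were another pseudocount, no floor, a filter on low rows and 3 scalings.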

Additional observations from a re-analysis of the deposited data

Results flagged for a closer look

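The same cultivar contrast ran in opposite directions in peel and leaf for the stilbene synthase rows, a difference between tissues that was not tested, since each group has 1 value. For Bangalore blue minus Dilkhush, VINST1 differed by 1.98 on the log2(RPKM + 1) scale in peel and by -1.37 in leaf. The STS rows differed by 2.54 and 1.96 in peel and by -1.60 and -0.96 in leaf, giving the row with the higher maximum first. For Red globe minus Dilkhush, VINST1 differed by 3.62 in peel and by -0.96 in leaf, and the STS rows by 4.26 and 2.93 in peel and by -1.63 and -0.55 in leaf. The leaf values rest on levels below 5 RPKM.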

How the results depend on the processing

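The counts of called members changed in 2 comparisons. For Bangalore blue minus Dilkhush peel 2 members were called without a floor on RPKM, the STS row with the higher maximum joining MYB14, and 0 where 2 columns had to reach 5 RPKM, a filter that kept 2 member rows in peel and 0 in leaf. The same filter left 2 of the 3 calls for Red globe minus Dilkhush peel, since it drops VINST1. Without a floor 1 pathway row was called between Bangalore blue and Red globe leaf, where none had been. Of 126 member differences recomputed under the alternatives, 124 kept their direction and call, which in leaf says little because no member there reaches the floor. With a pseudocount of 0.1, 7 of 12 leaf differences and 2 of 12 peel differences became over 1.5 times larger, among them Bangalore blue minus Dilkhush leaf for the STS row with the lower maximum (-2.48) and VINST1 (-3.64), and VINST1 in peel (3.94, and 5.80 for Red globe minus Dilkhush). The STS row with the higher maximum changed sign to -0.032 for Bangalore blue minus Red globe leaf with columns at an equal total without transfer RNA. Over the rows with at least 1 RPKM in every column of a tissue, that scaling moved the median difference. The shift was 0.14 for Red globe minus Dilkhush peel and -0.12 for Bangalore blue minus Red globe leaf. The share of genes before VINST1 that were lowest in Dilkhush peel and highest in Dilkhush leaf was 88.2% within 25 places and 38.9% within 100, and after it 0% and 5.71%; these widths were chosen after seeing the data. No paired analysis was possible because each group has 1 column for its 2 libraries, and for that reason leaving out a replicate was not run. The unknown depth, the single column a group and reads shared between close copies limit what can be said of the leaf values.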

Other observations

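Past the run of genes described above, LOC100267841, at 26 places after VINST1, had 54.5 RPKM in Bangalore blue, 73.7 RPKM in Red globe and 3.09 RPKM in Dilkhush peel, but 12.6, 6.85 and 12.2 RPKM in leaf of the same cultivars; it was singled out after its values were seen. The genes beside MYB14 did not show the order of Dilkhush seen before VINST1: 2 of 42 rows within 50 places before MYB14 (4.76%) and 4 of 46 rows after it (8.70%) were lowest in Dilkhush peel and highest in Dilkhush leaf.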
